A study of Mus musculus with 42 samples.

Results

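Hyaluronan is made, bound and broken down by a small group of genes, and 9 of them were followed in mouse muscle precursor cells: the receptors Cd44 and Hmmr, the synthases Has1, Has2 and Has3, the hyaluronidases Hyal1 and Hyal2, and the partner matrix proteins Tnfaip6 and Vcan. They were taken by gene symbol, and all 9 were found among the 24466 symbols of the RNA-seq count tables. Hyaluronan is a long, unsulphated sugar chain that synthases build at the plasma membrane and push straight out into the matrix. CD44 anchors it at the cell surface, versican and the hyaladherin TSG-6 (the product of Tnfaip6) bind it and organise it into a hydrated pericellular coat, and HYAL2 and HYAL1 cut it, the former at the cell surface and the latter in lysosomes. In developing muscle such a coat surrounds dividing myoblasts and is trimmed by proteases of the ADAMTS family before the cells fuse.

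The study asked how the paired-box transcription factor Pax7, which marks muscle stem cells, alters chromatin and transcription. iPax7 cells are myogenic precursors derived from 1 line of mouse embryonic stem cells that carries a doxycycline-inducible Pax7 transgene, and they were sorted as PDGFαR+Flk-1- cells before expansion. The +Dox group was grown with doxycycline and FGF, so that Pax7 was on, and the -Dox group was collected 3 days after doxycycline was withdrawn, with FGF kept in the medium. The satellite cells, the stem cells of adult muscle, were sorted by fluorescence from the muscles of Pax7-ZsGreen reporter mice. RNA-seq held 3 +Dox, 2 -Dox and 3 satellite cell libraries. ATAC-seq, which maps open chromatin, also covered 12 h and 24 h without doxycycline, iPax7 myotubes, and the C2C12 myoblast line as myoblasts, as myotubes and after stable retroviral transduction with an empty flag vector (flag control) or with Pax7-flag. ChIP-seq mapped Pax7 in +Dox and -Dox cells, of which the sites of +Dox cells were used here, and 4 histone marks in the iPax7 and transduced C2C12 cells. Animal age and pooling are not given in the sources used here, and nothing states that replicate libraries came from separate cultures or animals, so the p-values below measure only the spread between these libraries.

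Each RNA-seq library held 39010958 to 54674619 reads counted to genes. A read that maps to several places was set aside in the tables, and these made up 7.11 to 7.6% of reads in iPax7 libraries against 23.58 to 30.68% in satellite cell libraries. Replicates correlated at r = 0.96 or more within the iPax7 groups and at 0.928 to 0.945 in satellite cells, across genes, which are not independent replicates. The Pax7 counts followed the labels, at 270, 299 and 246 counts per 1e+06 counts of the library (CPM) in +Dox, 4.66 and 5.7 CPM in -Dox, and 180, 83 and 115 CPM in satellite cells. Markers of other cell types were higher in the satellite cell libraries: 10 of 10 endothelial genes, 9 of 12 fibroblast genes, 8 of 10 blood genes and 7 of 8 smooth muscle and pericyte genes passed the test as higher than in +Dox. Of all genes tested, 25.1% did. The summed level of the endothelial list was 440 to 646 CPM in satellite cells against 1.54 to 6.74 CPM in iPax7 cells, that of the fibroblast list 1820 to 3450 CPM against 93.2 to 269 CPM, and that of the blood list 101 to 391 CPM against 10 to 19.1 CPM. The pericyte and smooth muscle list summed to 737 to 1100 CPM in satellite cells, 76 to 162 CPM in +Dox and 1160 to 1170 CPM in -Dox. The -Dox sum was nearly all Acta2, at 1140 CPM, with Rgs5 at 0.859 to 0.952 CPM and Myh11 at 0 to 1.5 CPM. In satellite cells Acta2 was at 78.4 to 310 CPM and Myh11 at 15.5 to 46.4 CPM. Defining genes in satellite cell libraries stood at 85.5 to 142 CPM for Pecam1, 3.73 to 5.19 CPM for Pdgfra, 7 to 12.4 CPM for Ptprc and 205 to 391 CPM for Rgs5, while Cdh5 and Ptprc were at 0 counts in every iPax7 library. Marker genes at or near 0 counts there passed the filter on low counts, given below, only through satellite cells. For these genes a call in the other direction was not possible. The satellite cell list itself summed to 15900 to 25400 CPM. The part of the other cell types in the satellite cell values below was not tested, and in bulk RNA fewer cells of a type and less RNA per cell cannot be told apart. The -Dox libraries differed in state as well as in Pax7. In them 11 of 11 differentiated muscle genes were higher than in +Dox, where 4.66% of all genes were. The summed level of that list was 44100 to 45300 CPM against 178 to 211 CPM.

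**Figure D1:**
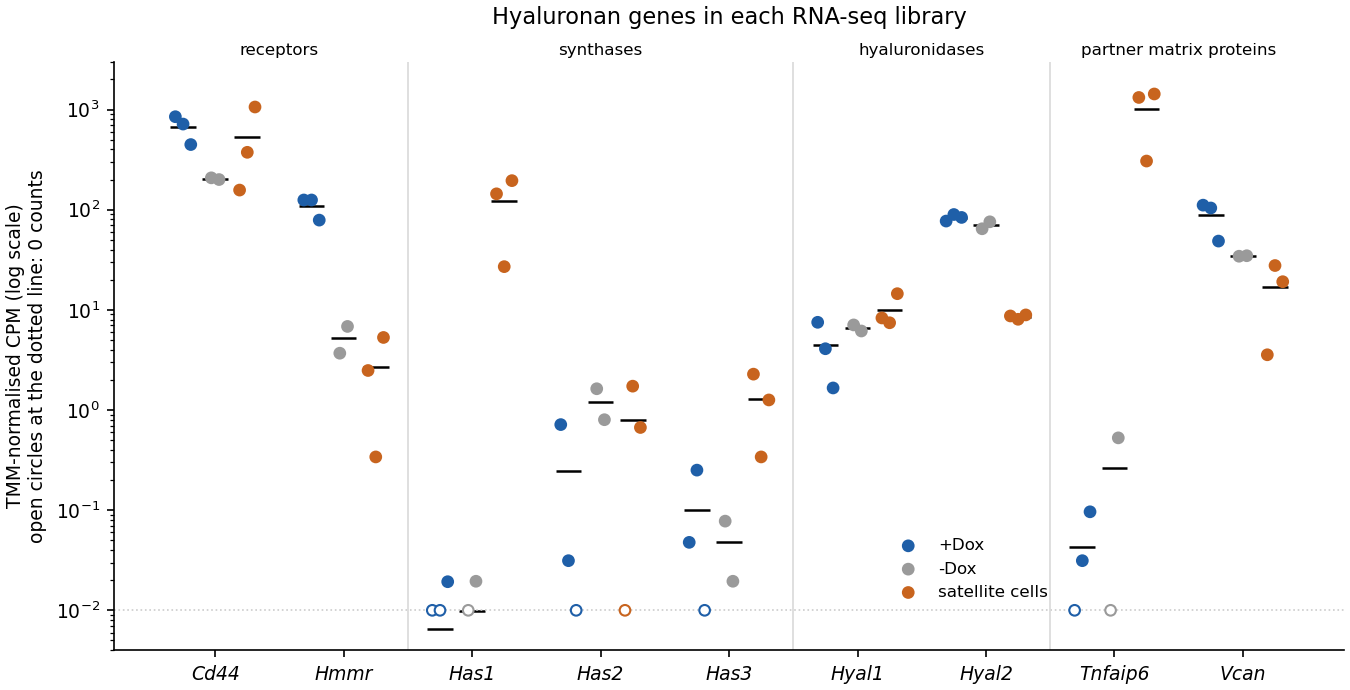
Level of each of the 9 genes in every RNA-seq library, as CPM on a log axis, for +Dox, -Dox and satellite cells, with bars at the group means and open circles on the dotted line for libraries with 0 counts. Has1 and Tnfaip6 were near 0 in iPax7 cells and between 27 and 1430 CPM in satellite cells, while Hmmr was high only in the 3 +Dox libraries.

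The 9 genes ranked differently in the 3 groups. Divided by the length of the gene's merged exons, in CPM per kilobase, +Dox cells held most Cd44 (97.8 ± 29.8, SD, n = 3), followed by Hyal2 (44.1 ± 3.3), Hmmr (19.7 ± 4.8), Vcan (6.07 ± 2.37) and Hyal1 (1.16 ± 0.774). No neighbours in that order overlapped between libraries. Has2, Tnfaip6, Has3 and Has1 followed at means of 0.0587 or less, and their libraries overlapped. In -Dox cells, with n = 2, Hyal2 led at 37 ± 4.18 CPM per kilobase, ahead of Cd44 at 29.8 ± 0.829, and Hmmr came after Vcan and Hyal1, at 0.944. In satellite cells Tnfaip6 led at 596 ± 362 CPM per kilobase, followed by Cd44 at 77.4 ± 68.8 and Has1 at 58.3 ± 41.2, and the libraries of these last genes overlapped. Hyal2 was at 4.51 ± 0.233 CPM per kilobase there, Hyal1 at 2.65 ± 1.01, and Vcan, Hmmr, Has3 and Has2 had means of 1.16, 0.485, 0.219 and 0.189 with overlapping libraries. The order of all 9 genes was the same in each group with the longest annotated transcript as the length.

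Each difference was tested over all 14836 genes that passed a filter on low counts, by the quasi-likelihood method of edgeR, with Benjamini-Hochberg adjusted p-values and a threshold of 0.05. All 9 genes passed the filter, but Has1, Has3 and Tnfaip6 did so through satellite cells alone. In the satellite cell comparisons these genes could be called only as higher, so the direction of any such call was fixed in advance. Their values also enter the medians given below. After doxycycline withdrawal 1 of the 9 genes passed the test, Hmmr, which was lower, against 7.7% of all genes (4.66% higher and 3.04% lower). DESeq2 called 2, adding Cd44. Between satellite cells and +Dox cells 5 of 9 passed, against 44.9% of all genes (25.1% higher and 19.8% lower), with Has1 and Tnfaip6 higher and Hyal2, Hmmr and Vcan lower. Between satellite cells and -Dox cells 3 of 9 passed, against 39% of all genes (20.9% higher and 18.1% lower), with Has1 and Tnfaip6 higher and Hyal2 lower. The median log2 fold change of the 9 genes in these comparisons was -0.25, 1.19 and 0.61, and that of all genes was 0, 0.17 and 0.23. The shares among the 9 lay near the background in the satellite cell comparisons, and the comparisons share libraries, so they are given side by side and not as independent observations.

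**Figure D2:**
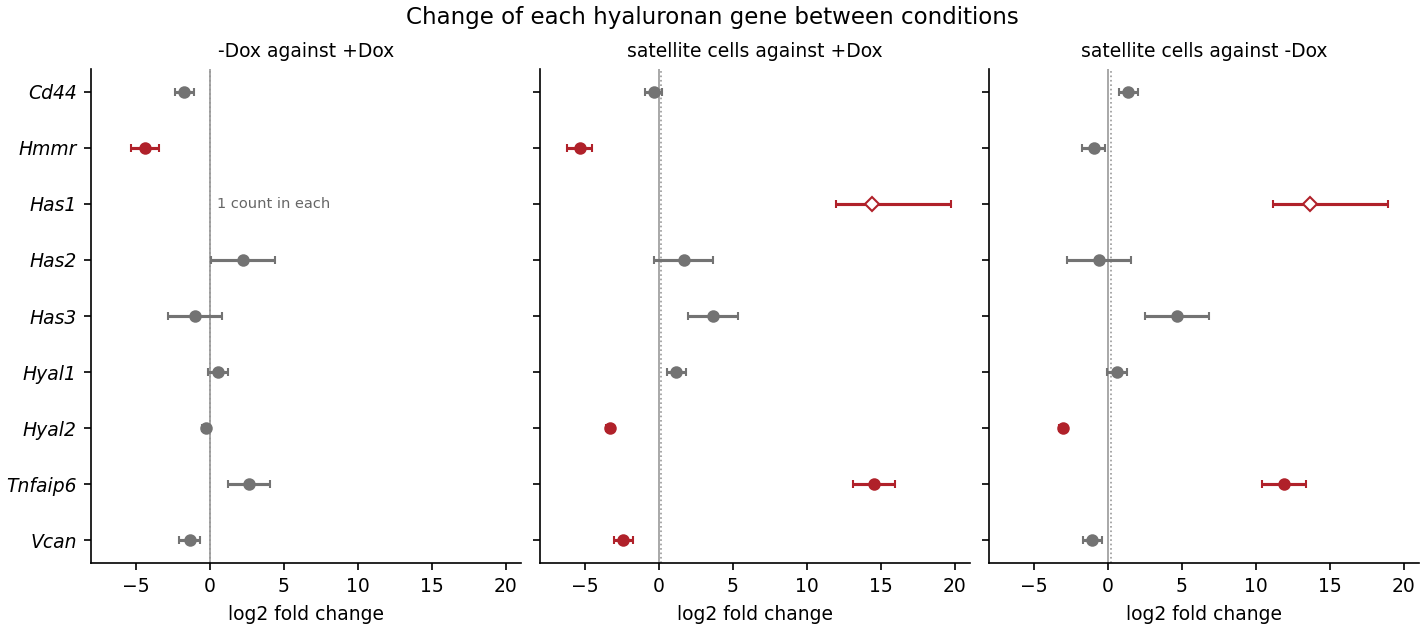
Log2 fold change of each of the 9 genes in the 3 comparisons, other than Has1 in -Dox against +Dox, with the standard error as the bar, red points for genes that passed the test and a dotted line at the median of all genes. Open diamonds give the ratio of Has1 counts with its counting interval, since the iPax7 groups held 1 count each, and the points run from -5.34 for Hmmr to 14.55 for Tnfaip6 in satellite cells against +Dox.

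Cd44, the main cell surface receptor of hyaluronan, lies at chr2:102651298-102741822 on the minus strand (build NCBIM37, also called mm9). Its level was 848, 716 and 447 CPM in +Dox, 208 and 200 CPM in -Dox, and 157, 374 and 1060 CPM in satellite cells. Every -Dox library lay below every +Dox library, and the satellite cell libraries spread over 6.74-fold and overlapped both iPax7 groups. The fall after withdrawal was 1.71 on the log2 scale with a standard error (SE) of 0.67, which did not pass in the fit over all 8 libraries (edgeR, adjusted p = 0.174). It passed when only the 5 iPax7 libraries were fitted, with the same log2 fold change of -1.71 and an SE of 0.3 (edgeR, adjusted p = 0.00965), and with DESeq2 (-1.67, SE 0.62, adjusted p = 0.0468). Satellite cells differed from +Dox cells by -0.34 (SE 0.57, edgeR, adjusted p = 0.658) and from -Dox cells by 1.38 (SE 0.66, edgeR, adjusted p = 0.124). Single satellite cell libraries decided these values. Without replicate 3 the difference from +Dox was -1.33 (edgeR, adjusted p = 0.0385), without replicate 1 it was 0.1 (edgeR, adjusted p = 0.869), and without replicate 1 the difference from -Dox was 1.82 (edgeR, adjusted p = 0.0215).

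At the Cd44 promoter the open chromatin and the marks were present in every condition given here. A peak is counted at a promoter where it lies within 1 kb of an annotated start of the gene, and its height is the fold enrichment that the authors' peak caller gave at the summit, from 1 merged peak set per condition with no replicates and thus no test. At Cd44 the ATAC-seq height was 38.7-fold in +Dox, 27.7-fold at 12 h, 46.3-fold at 24 h and 36.3-fold at 3 days of -Dox, and 29.3-fold in satellite cells. The promoter carried peaks of H3K27Ac and H3K4me3, which mark active promoters, in both +Dox and -Dox cells, and no peak of the repressive mark H3K27me3 in either.

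Pax7 itself bound near 2 of the 9 genes, Cd44 and Vcan, when each of the 2455 Pax7 sites in +Dox cells was given to the gene with the nearest start. By this rule 1806 symbols had a site, or 8.12% of the symbols of protein-coding genes. The Cd44 site lies in intergenic sequence 42.5 kb upstream of the gene, at chr2:102783976-102784614, 639 bp long. The middle 300 bases of the Cd44 and Vcan sites are shown because these are the 2 Pax7 sites that this rule gave to genes of the group. Both are written along the plus strand of NCBIM37, and capitals mark TAATTA, which holds the core bound by homeodomains such as that of Pax7. The windows are chr2:102784146-102784445 and chr13:89809283-89809582.
Cd44 Pax7 site: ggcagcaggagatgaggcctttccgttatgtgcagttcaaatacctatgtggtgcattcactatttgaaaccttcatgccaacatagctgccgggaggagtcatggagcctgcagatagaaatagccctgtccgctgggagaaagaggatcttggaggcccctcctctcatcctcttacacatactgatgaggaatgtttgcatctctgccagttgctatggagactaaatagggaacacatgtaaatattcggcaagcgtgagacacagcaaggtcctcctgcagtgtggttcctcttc
Vcan Pax7 site: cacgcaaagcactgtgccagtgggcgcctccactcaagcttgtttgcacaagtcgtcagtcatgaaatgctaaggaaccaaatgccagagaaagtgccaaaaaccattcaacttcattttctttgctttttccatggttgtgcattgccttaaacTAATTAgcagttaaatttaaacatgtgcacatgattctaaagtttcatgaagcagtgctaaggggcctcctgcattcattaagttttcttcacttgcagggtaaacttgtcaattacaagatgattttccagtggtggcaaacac
The motifs searched on both strands, allowing overlaps, were the homeodomain core TAATTA, the homeodomain dimer motif in which TAAT is followed by ATTA after 2 or 3 bases of any kind, the paired-domain core GTCACG and the AP-1 motif TGANTCA. The Cd44 window held none of them and the Vcan window held 1 TAATTA, while over the whole sites there were 1 TAATTA at Cd44, and 2 TAATTA and 1 TGANTCA at Vcan. TAATTA was present in 9.69% of 300-base windows at all 2455 Pax7 sites and in 7.19% of 6603 windows at ATAC-seq peaks of +Dox cells without a Pax7 site. The corresponding shares were 1.02% and 0.682% for the dimer motif with 2 bases between, 1.67% and 0.682% for that with 3, 9.78% and 6.3% for the paired-domain core, and 14.1% and 25.5% for the AP-1 motif.

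The 2 sites behaved differently when Pax7 was withdrawn. At the Cd44 site the ATAC-seq height was 69.5-fold in +Dox, 50-fold at 12 h, 72.9-fold at 24 h and 71.1-fold at 3 days of -Dox. These heights were above those of 96.7, 98.8, 97.8 and 97.5% of all Pax7 sites, sites without a peak counted as 0. A peak was present at 95.4% of Pax7 sites in +Dox and at 63.2, 63.4 and 68.0% at the 3 later times. At the Vcan site the height was 31.9-fold in +Dox and 4.2-fold, 3.33-fold and 4.81-fold at 12 h, 24 h and 3 days of -Dox. The ratio of +Dox to 12 h was 1.39 at Cd44 and 7.6 at Vcan, with a median of 2.72 over the 1548 Pax7 sites that had a peak in both, and 41.9% of sites open in +Dox had lost their peak at 12 h or had a ratio at least as large as that of Vcan. At 3 days the ratios were 0.977 and 6.64, against a median of 1.82. With the rule that a peak must cover at least 0.5 of the site, the Vcan peaks at 12 h, 24 h and 3 days no longer counted, and the Cd44 peaks still did.

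The Cd44 site was also open in cells other than the iPax7 precursors, with or without Pax7-flag. Its height was 63.7-fold in the C2C12 flag control and 57.2-fold with Pax7-flag, 28.8-fold in C2C12 myoblasts, 20.9-fold in C2C12 myotubes and 28.9-fold in iPax7 myotubes, where 38.6, 71.0, 25.1, 36.6 and 59.3% of Pax7 sites had a peak. In satellite cells it was 5.27-fold, above 60.9% of Pax7 sites, of which 53.0% had a peak, with a median of 8.79-fold over the sites that had a peak there. The Vcan site was 15.6-fold in the flag control and 29.9-fold with Pax7-flag, a ratio of 1.92 against 0.897 at Cd44 and a median of 1.24 over sites with a peak in both. It was 9.07-fold in iPax7 myotubes, above 69.7% of Pax7 sites, and 4.92-fold in C2C12 myoblasts, and had no peak in satellite cells or C2C12 myotubes. H3K27Ac covered the Cd44 site in +Dox and -Dox cells and the Vcan site in +Dox cells only, a mark that covered 73.2% of all Pax7 sites in +Dox and 37.9% in -Dox. H3K4me1, which marks enhancers, covered both sites in both conditions (91.2 and 73.8% of all Pax7 sites), and H3K27me3 covered neither (4.97 and 3.3%).

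**Figure D3:**
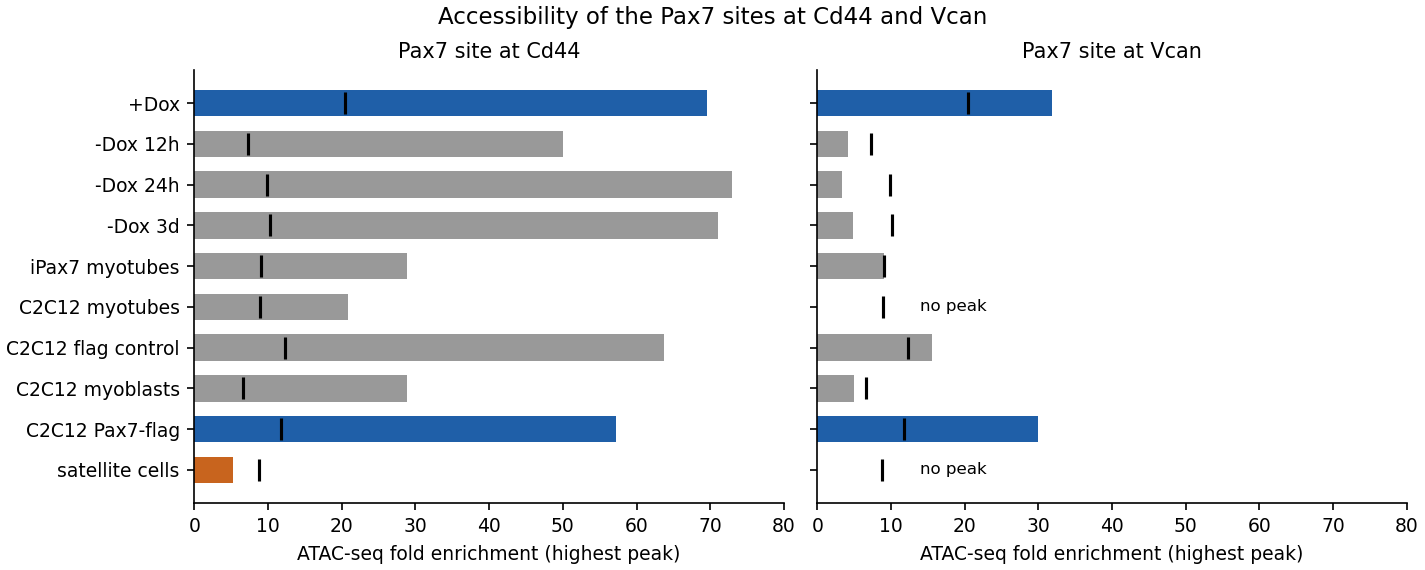
Height of the ATAC-seq peak, as fold enrichment, at the Pax7 sites near Cd44 and Vcan in 10 conditions, with blue bars for cells with induced or transduced Pax7, orange for satellite cells, grey for the rest and black ticks at the median over all Pax7 sites with a peak. The Cd44 bars stay between 50 and 72.9-fold through withdrawal, and the Vcan bars drop from 31.9 to 4.2-fold at 12 h.

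Hmmr encodes RHAMM, a hyaluronan-binding protein that also works inside dividing cells at the mitotic spindle, and lies at chr11:40514890-40546939 on the minus strand. It stood at 125, 125 and 78.7 CPM in +Dox, 3.69 and 6.83 CPM in -Dox, and 2.48, 0.34 and 5.3 CPM in satellite cells. The +Dox libraries were all above the others, and the -Dox and satellite cell libraries overlapped. Hmmr fell by 4.38 on the log2 scale after withdrawal (SE 0.95, edgeR, adjusted p = 0.0225), or 20.8-fold, and was 40.4-fold lower in satellite cells than in +Dox (log2 fold change -5.34, SE 0.83, edgeR, adjusted p = 0.00091). Satellite cells differed from -Dox by -0.96 (SE 0.78, edgeR, adjusted p = 0.349). The call after withdrawal was lost, with log2 fold changes of -4 to -4.88, when +Dox replicate 1, +Dox replicate 2, -Dox replicate 1 or -Dox replicate 2 was left out (edgeR, adjusted p = 0.0569, 0.0553, 0.185 and 0.112).

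Other genes of mitosis moved beside Hmmr. Of 18 genes of the spindle and proliferation, 15 fell after withdrawal, against 3.04% of all genes. The other 3, Ttk, Brca1 and Dynll1, did not pass, with log2 fold changes of -4.36, -3.71 and 0.26. All 18 were lower in satellite cells than in +Dox, against 19.8% of all genes, with a median log2 fold change of -4.6. Only 3 (Cdk1, Ccnb1 and Dynll1) were lower than in -Dox, a share near the 18.1% of all genes. The medians for withdrawal and for satellite cells against -Dox were -3.68 and -0.9. Tpx2, the spindle assembly factor that binds the Aurka kinase, was at 157 to 192 CPM in +Dox, 10.4 to 17.8 CPM in -Dox and 6.64 to 10.2 CPM in satellite cells. Among 2786 genes that varied enough to compare, the patterns most like that of Hmmr over the 8 libraries were those of Asf1b, Brca1 and Rrm2, with root mean square differences of 0.537, 0.591 and 0.618 in centred log2(CPM + 1) against a median of 3.42. The Hmmr promoter kept its peak, with ATAC-seq heights of 80.1-fold in +Dox, 82.3-fold at 3 days of -Dox and 64.6-fold in satellite cells, and with H3K27Ac in both iPax7 conditions.

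The synthases were scarce in iPax7 cells, and Has1 alone was abundant in satellite cells. Has1 lies at chr17:17980292-17992152 on the minus strand. It had 0, 0 and 1 counts in +Dox and 0 and 1 counts in -Dox, and 5156, 953 and 6990 counts in satellite cells, or 144, 27 and 195 CPM. The satellite cell libraries, though spread over 7.22-fold, all lay far above the iPax7 libraries. The ratio of the counts, scaled to library size, was 21900 against +Dox (95% interval from 3920 to 864000) and 12600 against -Dox (from 2250 to 496000), where the intervals cover counting error only (edgeR, adjusted p = 3.83e-05 and 0.000155). No fold can be read between -Dox and +Dox, which had 1 count each.

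The start of Has1 had its highest ATAC-seq peak in satellite cells. There was no ATAC-seq peak within 1 kb of it in +Dox or at 12 h, and a peak of 2.59-fold at 24 h, 3.98-fold at 3 days and 8.59-fold in satellite cells, with -log10 q values of 3.03, 12.5 and 26.6. H3K4me3 was called there in -Dox but not in +Dox, in a -Dox peak set that held 214172 peaks against 94067, and neither H3K27Ac nor H3K27me3 was called in either condition. The 250 bases before the starts of Has1 and Tnfaip6 are shown because these are the genes of the group that were on in satellite cells and near 0 in iPax7 cells. They are chr17:17992153-17992402 on the minus strand and chr2:51893279-51893528 on the plus strand of NCBIM37, each written along its gene. Capitals mark TGACGTCA, the cyclic AMP response element, in Has1 and TGAGTCA, a match to the AP-1 motif TGANTCA, in Tnfaip6.
Has1 upstream: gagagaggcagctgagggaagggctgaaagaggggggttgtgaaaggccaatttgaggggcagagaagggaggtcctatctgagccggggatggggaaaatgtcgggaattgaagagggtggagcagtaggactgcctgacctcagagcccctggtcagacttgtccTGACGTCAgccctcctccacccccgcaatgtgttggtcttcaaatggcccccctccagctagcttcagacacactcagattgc
Tnfaip6 upstream: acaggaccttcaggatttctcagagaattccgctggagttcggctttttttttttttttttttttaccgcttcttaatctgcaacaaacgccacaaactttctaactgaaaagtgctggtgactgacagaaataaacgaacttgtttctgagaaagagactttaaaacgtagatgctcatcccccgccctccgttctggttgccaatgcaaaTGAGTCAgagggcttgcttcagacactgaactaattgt
TGANTCA, TGACGTCA and TATAAA were searched on both strands with overlaps allowed, and were present in 6, 1.91 and 12.3% of the 250-base windows upstream of 22380 protein-coding genes. A match describes the letters and does not show that a factor binds them.

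Has2, the synthase of embryonic mesenchyme, lies at chr15:56497182-56526094 on the minus strand. It had 45, 2 and 0 counts in +Dox, 84 and 41 counts in -Dox, and 0, 61 and 24 counts in satellite cells, which is 1.73 CPM at most. The -Dox libraries lay just above the +Dox libraries, and satellite cells overlapped both. None of its differences passed, at 2.27 (SE 2.16) for withdrawal, 1.67 (SE 1.99) for satellite cells against +Dox and -0.6 (SE 2.14) against -Dox (edgeR, adjusted p = 0.633, 0.522 and 0.848). Replicate 1 held all but 2 of the +Dox counts, and without it the fitted differences from +Dox were 6.02 for withdrawal and 5.37 for satellite cells and did not pass (edgeR, adjusted p = 0.269 and 0.124). At counts this low, changes of these sizes could not be told from the spread between libraries, and 182 exon bases of Has2 overlap the antisense gene Has2as, whose reads cannot be told apart without strand. The ATAC-seq height at the Has2 promoter was 3.19-fold in +Dox, 1.94-fold at 3 days and 18.2-fold in satellite cells, and 62.6-fold and 60.8-fold in C2C12 flag control and Pax7-flag cells, where 56.5 and 57.6% of genes had a promoter peak and for which no RNA-seq was analysed here. H3K27me3 covered it in +Dox and -Dox cells. Over 13983 genes, those with the pattern most like Has2 were Lpgat1, Psme4 and Mipep. Their root mean square differences were 0.2, 0.261 and 0.263 against a median of 0.948. With at most 84 counts of Has2 in a library, this likeness was not tested against counting error.

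Has3, at chr8:109394142-109406802 on the plus strand, had 3, 16 and 0 counts in +Dox, 4 and 1 counts in -Dox, and 82, 12 and 45 counts in satellite cells. In CPM the satellite cell libraries (2.28, 0.34 and 1.26) all lay above the iPax7 libraries (0.251 or less). The difference did not pass, at 3.66 (SE 1.72) against +Dox and 4.66 (SE 2.17) against -Dox (edgeR, adjusted p = 0.109 and 0.113). With DESeq2 the second was 4.75 (SE 2.05, adjusted p = 0.0449). Withdrawal changed it by -1 (SE 1.84, edgeR, adjusted p = 0.853). Its promoter had an ATAC-seq peak of 4.56-fold in +Dox and 3.33-fold at 3 days, none in satellite cells, and H3K27me3 in both iPax7 conditions.

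Of the hyaluronidases, Hyal2 was lower in satellite cells. This membrane-anchored enzyme, at chr9:107471448-107475107 on the plus strand, was at 77, 89.5 and 83.7 CPM in +Dox, 64.5 and 75.7 CPM in -Dox, and 8.69, 8.05 and 8.9 CPM in satellite cells. The 3 groups did not overlap, and the satellite cell libraries lay within 1.11-fold of each other. Hyal2 was 9.76-fold lower in satellite cells than in +Dox (log2 fold change -3.29, SE 0.26, edgeR, adjusted p = 2.44e-05) and 8.2-fold lower than in -Dox (-3.04, SE 0.27, edgeR, adjusted p = 7.13e-05). Withdrawal changed it by -0.25 (SE 0.26, edgeR, adjusted p = 0.676). The ATAC-seq height at the Hyal2 promoter was 24.0-fold in +Dox, 22.6-fold at 3 days and 16.2-fold in satellite cells.

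Hyal1, the lysosomal enzyme, lies next to Hyal2 at chr9:107479258-107485174 on the plus strand. It was at 7.51, 4.09 and 1.66 CPM in +Dox, 7.07 and 6.15 CPM in -Dox, and 8.3, 7.43 and 14.5 CPM in satellite cells. The iPax7 groups overlapped, and the satellite cell libraries lay above the -Dox libraries but overlapped +Dox. None of its differences passed, at 0.58 (SE 0.67), 1.19 (SE 0.62) and 0.61 (SE 0.69) for withdrawal, satellite cells against +Dox and satellite cells against -Dox (edgeR, adjusted p = 0.715, 0.143 and 0.511). It shares 1947 exon bases with Nat6 and 159 with Hyal3 on the same strand, so its counts are uncertain. Its promoter had an ATAC-seq height of 12.1-fold in +Dox and 26.4-fold, 28.5-fold and 34.7-fold at 12 h, 24 h and 3 days, and 13.9-fold in satellite cells. This is the highest peak near any annotated start, and 1 start lies inside the gene at chr9:107481218. Which start, or which of the overlapping genes, these peaks belong to was not tested.

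Tnfaip6 was the most abundant of the 9 genes per length in satellite cells. TSG-6 moves the heavy chains of inter-alpha-trypsin inhibitor onto hyaluronan and so crosslinks it, and the gene lies at chr2:51893529-51912206 on the plus strand. It had 0, 2 and 5 counts in +Dox, 0 and 27 counts in -Dox, and 47243, 10808 and 51427 counts in satellite cells, or 1320, 306 and 1430 CPM. All satellite cell libraries lay far above all iPax7 libraries, and the iPax7 groups overlapped. The fitted log2 fold change was 14.55 against +Dox (SE 1.41, edgeR, adjusted p = 7.24e-05) and 11.9 against -Dox (SE 1.51, edgeR, adjusted p = 0.00038). Between -Dox and +Dox it was 2.65 (SE 1.43, edgeR, adjusted p = 0.329), a value that rested on -Dox replicate 2, since the other -Dox library had 0 counts and gives no direction. The promoter was already open in iPax7 cells, at 12.7-fold in +Dox and 16.5-fold at 3 days, under H3K27me3 in both conditions, and reached 34.0-fold in satellite cells.

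Vcan encodes versican, the large proteoglycan of the hyaluronan coat, and lies at chr13:89794915-89882117 on the minus strand. Its level was 111, 104 and 48.6 CPM in +Dox, 34.3 and 34.7 CPM in -Dox, and 3.56, 27.7 and 19.1 CPM in satellite cells. The 3 groups were in that order with no overlap, although the satellite cell libraries differed by up to 7.77-fold. Vcan was 5.24-fold lower in satellite cells than in +Dox (log2 fold change -2.39, SE 0.64, edgeR, adjusted p = 0.0142). The differences of -1.35 (SE 0.71) for withdrawal and -1.04 (SE 0.67) for satellite cells against -Dox did not pass (edgeR, adjusted p = 0.318 and 0.24).

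The Pax7 site of Vcan lies in an intron at chr13:89809028-89809836, 809 bp long, 72.69 kb downstream of the gene's start and 8.29 kb from the nearest annotated start of the gene. Its sequence and its ATAC-seq heights are given above. The ATAC-seq height at the Vcan promoter was 25.5-fold in +Dox, 15.8-fold, 21.7-fold and 17.8-fold at 12 h, 24 h and 3 days, and 26.9-fold in satellite cells. It carried H3K27Ac in both iPax7 conditions and an H3K27me3 peak in -Dox only. The genes with the pattern most like Vcan among 7795 were Zfp41, Arap2 and Rnf219, with root mean square differences of 0.36, 0.4 and 0.417 against a median of 1.8, and those most like Cd44 among 11007 were Rerg, Vars2 and Zgrf1, at 0.328, 0.369 and 0.386 against a median of 1.33.

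**Figure D4:**
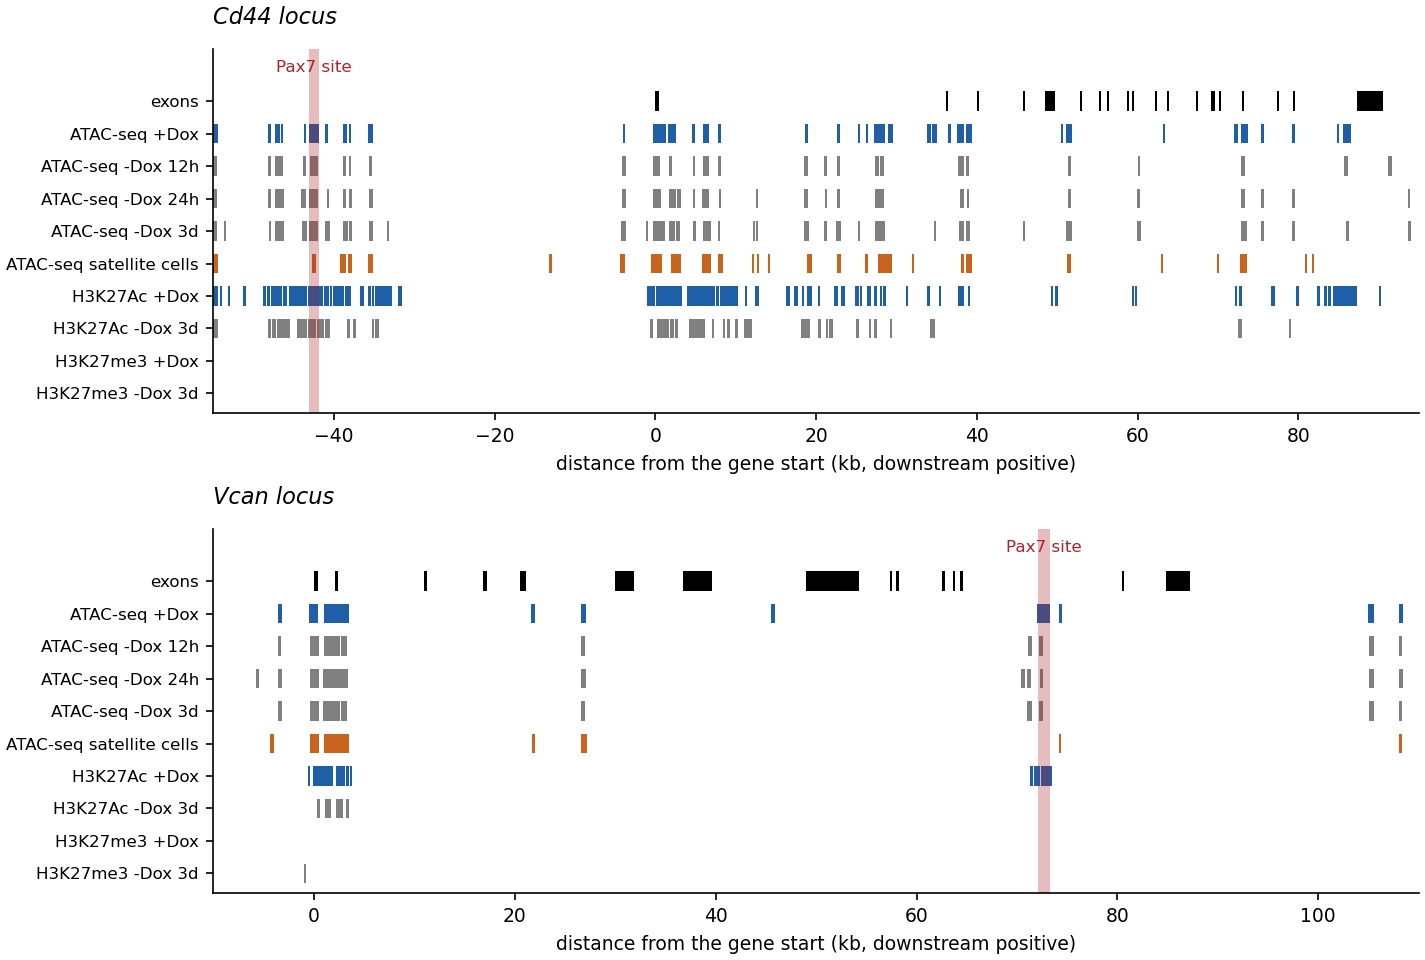
Exons, ATAC-seq peaks and H3K27Ac and H3K27me3 peaks around Cd44 and Vcan, as blocks along the distance from the gene's start in kilobases, with the Pax7 site as a red band. The band crosses peaks in every ATAC-seq line at Cd44, and at Vcan a wide +Dox block narrows after withdrawal and is missing in satellite cells.

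Across the group, promoters of 8 of 9 genes had an ATAC-seq peak in +Dox (63.9% of protein-coding genes did), 8 of 9 at 12 h (62.0%), 9 of 9 at 24 h (65.0%) and at 3 days of -Dox (66.4%) and 8 of 9 in satellite cells (59.1%). H3K27Ac was present at 5 of 9 in both +Dox and -Dox, against 48.6 and 45.6% of genes. These were Cd44, Hmmr, Hyal1, Hyal2 and Vcan, the members with a mean level of 1.16 CPM per kilobase or more in +Dox. H3K27me3 was present at 3 of 9 in +Dox (Has2, Has3 and Tnfaip6) and at these and Vcan in -Dox, against 22.4 and 20.5% of genes. H3K4me3 was present at 8 of 9 in +Dox and 9 of 9 in -Dox, against 60.7 and 66.5%.

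Genes around the 9 in the same pathway were read from lists chosen with earlier results of these data known. Listed genes at or near 0 counts in iPax7 cells, such as Lyve1 and Adamts15, passed the filter on low counts only through satellite cells. These could be called only as higher there. The list for hyaluronan precursor supply held 11 genes of sugar phosphates, UDP-sugars and their transport. In satellite cells 6 were higher and 1 lower than in +Dox (median log2 fold change 1.49), and 5 were higher and 1 lower than in -Dox (1.1). Of all genes, 25.1 and 20.9% were higher in these comparisons. Gfpt2, which commits fructose 6-phosphate to the hexosamine pathway, rose from means of 4.46 and 5.82 CPM in +Dox and -Dox to 1170 CPM (log2 fold changes 8.04, SE 0.54, and 7.65, SE 0.64, edgeR, adjusted p = 1.14e-05 and 5.96e-05). Uap1, which makes UDP-N-acetylglucosamine, was at 13.3, 18.9 and 398 CPM in the same order (4.9, SE 0.29, and 4.39, SE 0.33, edgeR, adjusted p = 6.72e-06 and 3.74e-05). The hexokinase Hk2 (3.37, SE 0.44) and the sugar transporter Slc35d1 (1.66, SE 0.39) were also higher than in +Dox, as were Ugp2 at 1.59 and Gfpt1 at 1.49. Slc35d1 is counted among the 6 and the 5 higher genes, but its part in the supply of hyaluronan was not tested. Against -Dox, Slc35d1 (2.81), Ugdh (2.0), which makes UDP-glucuronic acid, and Hk2 (2.0) were higher. The gene that fell in both was Gpi1, at -1.09 and -1.65. Hk2 against -Dox, Ugp2 and Gfpt1 against +Dox, and Gpi1 were named after their values were seen. After withdrawal 1 of 11 passed, against 7.7% of all genes. That gene was Ugp2, which makes UDP-glucose and rose from 58.9 to 375 CPM (2.67, SE 0.58, edgeR, adjusted p = 0.0238).

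Of 6 ADAMTS genes for proteases that cleave versican, 5 were higher in satellite cells than in +Dox and 4 higher than in -Dox, against 25.1 and 20.9% of all genes, with medians of 6.17 and 3.99. None passed as lower, and Adamts5, named after its values were seen, did not pass in either (0.44 and -0.63). Adamts1 rose from 22.3 and 33.6 CPM in +Dox and -Dox to 624 CPM (4.81, SE 0.36, and 4.21, SE 0.42, edgeR, adjusted p = 1.93e-05 and 0.000124), and Adamts4 from 1.7 and 7.81 to 318 CPM (7.53, SE 0.77, and 5.35, SE 0.83, edgeR, adjusted p = 9.08e-05 and 0.00104). Adamts15 had no counts in iPax7 cells and was at least 866-fold higher than in +Dox and at least 498-fold higher than in -Dox, with the floor set at 3 counts over the group. Adamts9 was higher by 3.77 than in -Dox (SE 0.89) and by 3.09 than in +Dox (SE 0.73), the latter named after its value was seen. Adamts20 was at 0 counts in +Dox, 12.8 CPM in -Dox and 21.6 CPM in satellite cells, at least 762-fold and at least 1290-fold above +Dox (edgeR, adjusted p = 0.000177 and 3.36e-05). It was the 1 gene of the 6 that passed after withdrawal, against 7.7% of all genes, and the median there was 0.83.

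Among 9 tested genes of other hyaluronan-binding proteins, of the matrix or elsewhere, 3 were higher and 2 lower in satellite cells than in +Dox (median 2.11). Of all genes, 25.1% were higher and 19.8% lower. Itih5, a heavy chain of the family that TSG-6 transfers, was at means of 0.0706 CPM in +Dox, 0.712 CPM in -Dox and 489 CPM in satellite cells (12.85, SE 1.5, and 9.42, SE 1.54, edgeR, adjusted p = 0.000193 and 0.0014). Ptx3, a pentraxin that joins TSG-6 in crosslinking hyaluronan, was at 0.209, 0.224 and 37.3 CPM (7.46, SE 0.62, and 7.36, SE 0.75, edgeR, adjusted p = 3.54e-05 and 0.000135). Itih4 was at least 42.3-fold higher than in +Dox, from 0 counts there, at a mean of 0.707 CPM in satellite cells (edgeR, adjusted p = 0.0488). C1qbp was lower than in +Dox by -1.33, named after its value was seen, and than in -Dox by -1.27 (SE 0.42). Aggrecan (Acan) was at 5.02 CPM in +Dox, 0 in -Dox and 0.0093 CPM in satellite cells, at least 177-fold lower after withdrawal (edgeR, adjusted p = 0.0118) and 554-fold lower in satellite cells than in +Dox (95% counting interval from 99.2 to 21900, edgeR, adjusted p = 0.0017). It was the 1 gene of the 9 that passed after withdrawal, against 7.7% of all genes, with a median of 0.51. Compared with -Dox, 2 of the 9 were higher and 1 lower in satellite cells, beside 20.9 and 18.1% of all genes. The median there was 1.84, or 1.61 with the gene that had no counts at its bound.

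Of 6 other hyaluronan receptors, 4 were higher in satellite cells than in +Dox and 3 higher than in -Dox, against 25.1 and 20.9% of all genes. Stab2 rose to 22.2 CPM and Stab1 to 14 CPM, clearance receptors known from endothelium, and Lyve1, the receptor of lymphatic endothelium and of some macrophages, to 7.13 CPM. Lyve1 was at least 426-fold above +Dox, where it had 0 counts (edgeR, adjusted p = 0.00192), and the ratios of counts for Stab2 and Stab1 were 1980 (interval from 547 to 16300) and 835 (from 285 to 4050). The innate immune receptor Tlr2 was 2.83 higher than in +Dox on the log2 scale (SE 0.62, edgeR, adjusted p = 0.00547). These genes mark cell types whose other markers were also higher in the same libraries, as given above, and the part of those cells was not tested. After withdrawal 0 of 6 passed in edgeR, against 7.7% of all genes, 2 had an unadjusted p under 0.05 and DESeq2 called 1. The medians of the 3 comparisons were 1.83, 6.18 and 4.04, or 1.35 and 5.78 for the comparisons with +Dox with genes without counts at their bound.

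**Figure D5:**
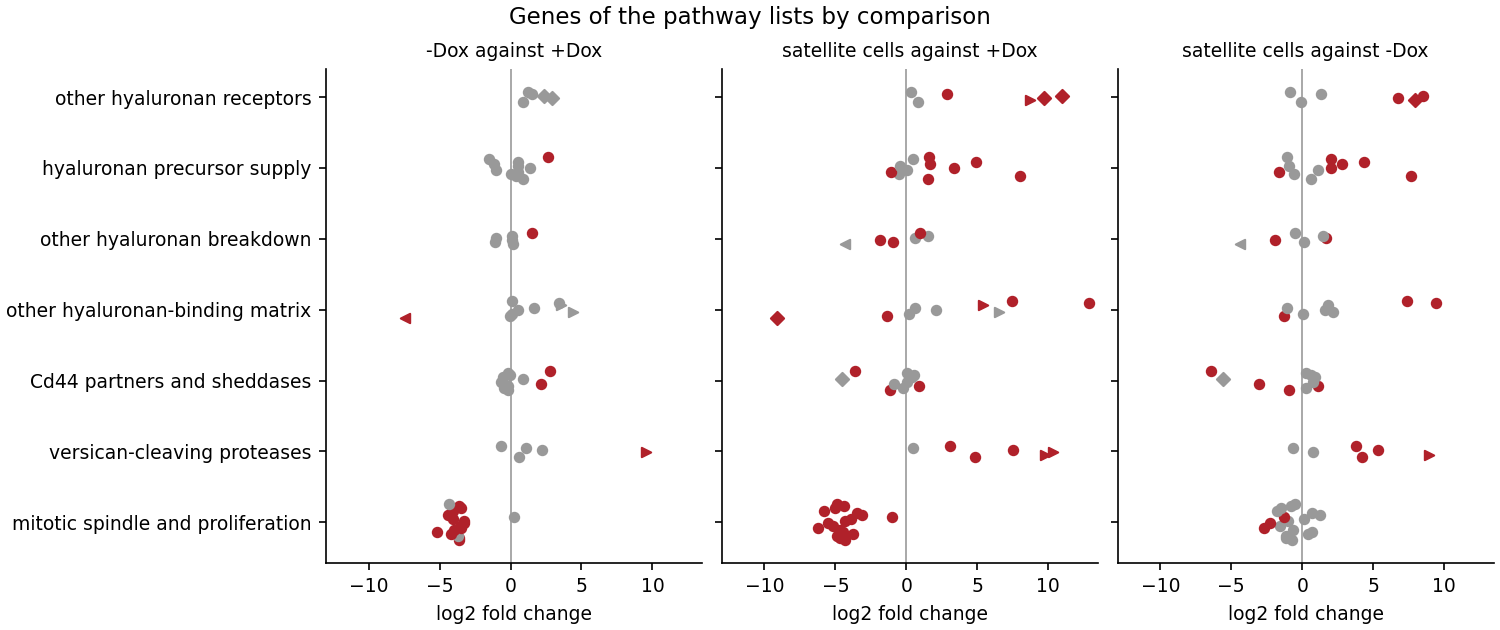
Log2 fold change of every tested gene of the 6 pathway lists and the mitotic list in the 3 comparisons, with 1 point a gene, red where it passed the test, triangles for bounds against a group at 0 counts and diamonds for ratios of 1 to 3 counts. The precursor genes and ADAMTS proteases lie mostly above 0 in satellite cells. The mitotic genes lie below 0 in both comparisons with +Dox, other than Dynll1 at 0.26 after withdrawal.

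The ligands, sheddases and cytoskeletal partners of Cd44 divided. Of 10 genes, 2 rose after withdrawal, against 4.66% of all genes. They were Spp1, which encodes the CD44 ligand osteopontin and went from 1100 to 7670 CPM (2.8, SE 0.69, edgeR, adjusted p = 0.0383), and fibronectin (Fn1), which went from 142 to 637 CPM (2.17, SE 0.44, edgeR, adjusted p = 0.017). Satellite cells had less Spp1 than +Dox by -3.61 (SE 0.67) and less than -Dox by -6.41 (SE 0.79), at a mean of 90.0 CPM (edgeR, adjusted p = 0.00231 and 0.000321). The sheddase Adam10 was lower by -1.16 and -0.96, the linker ezrin (Ezr) higher by 0.9 and 1.1, and Fn1 lower than in -Dox by -3.07 (SE 0.45, edgeR, adjusted p = 0.000796). In all 1 gene was higher and 2 were lower than in +Dox, beside 25.1 and 19.8% of all genes. Compared with -Dox, 1 was higher and 3 were lower, beside 20.9 and 18.1% of all genes. The list medians were -0.2, -0.09 and 0.24 in the 3 comparisons. Of 6 tested genes of hyaluronan breakdown other than Hyal1 and Hyal2, the cell surface hyaluronidase Tmem2 rose after withdrawal (1.49, SE 0.39, edgeR, adjusted p = 0.0495) and was higher in satellite cells than in +Dox (0.99, SE 0.36, edgeR, adjusted p = 0.0481). The lysosomal enzymes Hexa (-1.85, SE 0.31) and Gusb (-0.96, SE 0.32) were lower in satellite cells than in +Dox, and Hexa was also lower than in -Dox (-1.94, SE 0.33). Thus 1 of the 6 rose after withdrawal, beside 4.66% of all genes. Relative to +Dox, 1 was higher and 2 were lower in satellite cells, beside 25.1 and 19.8% of all genes. Of all genes, 18.1% were lower than in -Dox. The medians of this list were 0.08, -0.16 and -0.17.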

How the data were processed

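RNA-seq gene counts, ATAC-seq peaks and ChIP-seq peaks were analysed as deposited. The raw counts per gene symbol were made by the authors in the form HTSeq writes. The submitters' processing notes name Trimmomatic 0.32, TopHat2 2.0, Bowtie2 2.2 and 2.2.6, HTSeq 0.6, Picard, MACS2 2.0.10, edgeR and the mm9 build. The annotation and the strand setting of the counting are not given in the sources used here. The ATAC-seq peak lists hold, per the authors, the fold enrichment at the summit as a ratio and -log10 p and q values from MACS2 on merged replicates, with read ends shifted for the Tn5 enzyme and duplicate and mitochondrial reads removed. The deposited ChIP-seq lists give coordinates only, from the Qeseq peak caller. Histone peaks were called on merged replicates, and Pax7 sites were kept by the authors where found in 2 or more +Dox replicates and in no -Dox replicate.

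The closing lines of each count table, which name no gene, were left out. They were reads mapped to several places (7.11 to 30.68%), ambiguous reads (1.51 to 2.32%) and reads in no feature (0.002 to 0.0031%). Counts were fitted with edgeR 4.0.16 in R 4.3.3 (filterByExpr, TMM factors of 0.8187 to 1.201, glmQLFit and glmQLFTest over all 8 libraries with 5 residual degrees of freedom), and p-values were adjusted by Benjamini-Hochberg. The SE of a log2 fold change was taken as its size divided by the square root of the F statistic. CPM are TMM-scaled. On simulated counts for these libraries with 200 changed genes, 4-fold changes were recovered in 73% (-Dox against +Dox), 84% (satellite cells against +Dox) and 73% (satellite cells against -Dox) of cases and 16-fold changes in 97, 99 and 98%, with 14551, 14509 and 14500 genes tested, and unchanged genes made up 4.494, 1.613 and 3.39% of the calls. For a gene at 0 counts over a group the fold is a bound against 3 counts over the group, and for 1 to 3 counts it is a ratio of counts with an exact 95% interval. Precision is set by the counts given beside each value, and intervals and bounds cover counting error only. The simulated recovery shares are over the 200 changed genes together. They were not read apart for low counts, such as those of Has2 and Has3, or for a wide spread between libraries. The shares therefore do not give the chance of a call for a single gene of the group.

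Peaks were compared with gene starts of GENCODE M1 on NCBIM37 within 1 kb, and with Pax7 sites by any overlap. ATAC-seq heights are scaled within each merged peak set and were not matched for depth. Sequences were read from NCBIM37. Protein sequences were not used here. Alternatives were DESeq2 1.42.0, RLE and upper-quartile scaling, other filters on low counts, fits of only the groups compared, a replicate block, each library left out in turn, a window of 2.5 kb, a -log10 q of at least 5, 0.5 of a Pax7 site covered, and the longest transcript as the length.

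The 9 genes and the lists were chosen with earlier results of these data known. All 9 are named with their values. From each pathway list up to 4 genes that passed the test in a comparison are named, those with the largest absolute log2 fold change. For marker and mitotic lists counts, summed levels and defining genes are given. For Cd44, Has2, Hmmr and Vcan the 3 genes with the most similar pattern are named. Similarity is the root mean square difference of centred log2(CPM + 1), among genes whose SD is at least 0.5 of that of the member. The closest genes lie below the median by the way they are picked, so the median is no test of likeness. Genes outside these rules are said to be named after their values were seen. This holds for Ttk, Brca1, Dynll1, Cdk1 and Ccnb1 too. A result within the breakdown list is not reported here.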

Additional observations from a re-analysis of the deposited data

How the results depend on the processing

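Counts after withdrawal depended most on the fit. The pathway genes counted in this section are those of the pathway lists and of the mitotic list together. In the reported fit, 15 of the 21 that passed after withdrawal were from the mitotic list. For satellite cells against -Dox, 3 of the 25 were. The genes of the 9 that passed numbered 1 in the reported fit, 2 with DESeq2, 2 with only the 5 iPax7 libraries fitted and 0 to 1 with a library left out. The pathway list genes that passed numbered 21 and ranged from 5 to 22 with a library left out, and all genes that passed numbered 1142, against 2129 with DESeq2, 2155 with only the iPax7 libraries and 488 to 1444 with a library left out. For satellite cells against -Dox the pathway genes were 25 (16 to 28) and all genes 5780 (3204 to 6131, lowest without a -Dox replicate). With a replicate block the counts after withdrawal were 3 of 9, 35 pathway genes and 4017 genes when only the iPax7 libraries were fitted, with 1 residual degree of freedom, and 0 of 9, 12 and 742 when all 8 libraries were fitted. Cd44 (-1.93) and Vcan (-1.64) passed in the former block, and Hmmr missed in the latter (adjusted p = 0.0636). Libraries of the same number correlated at r = -0.108 to 0.0835 in their deviations from the group means, so the samples share only a number and no sample pairing was shown. The differences that changed sign, none of which passed in the reported fit, were after withdrawal, with a library left out, Has3 (-2.21 to 0.94, the latter without +Dox replicate 2), Has1 (-1.68 to 2.25) and Tnfaip6 (-4.05 to 3.86), both lowest without -Dox replicate 2, where the remaining -Dox library had 0 counts and the fitted value carries no direction, then Cd44 in satellite cells against +Dox (-1.33 to 0.1, without satellite cell replicates 3 and 1), and Has2 in satellite cells against -Dox (0.98 with the replicate block over all 8 libraries). With 0.5 of a Pax7 site covered, peaks over the Cd44 and Vcan sites went from 2 sites to 1 for ATAC-seq at 12 h, 24 h and 3 days of -Dox and in C2C12 myoblasts and for H3K27Ac in the flag control, from 2 to 0 for H3K4me3 in +Dox, and from 1 to 0 for H3K4me3 in the flag control and in Pax7-flag cells. The cause was not tested. The calls for Has1, Tnfaip6, Hyal2, Hmmr and Vcan in the satellite cell comparisons held under every alternative run. The spread of satellite cell libraries, such as 15.6-fold for Hmmr and 7.77-fold for Vcan, and counts under 100 for Has2 and Has3 limit what could be called.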
